A study of Mus musculus with 11 samples.

Results

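The Wnt, Fgf and Bmp signalling genes described here are the 87 mouse genes whose symbol marks them as a Wnt ligand, a Frizzled receptor, a secreted Wnt antagonist (Sfrp, Dkk or Frzb), an Fgf or Fgf receptor, a Bmp, a Gdf or Nodal. They were chosen by symbol alone from 31575 genes named in the files, and the rule uses no measured value. They carried 70 of 31479 H3K27ac regions (36 genes), 171 of 20086 H3K27me3 regions (64 genes) and 82 of 22332 promoter windows scored for ISL1. The symbols also brought in genes outside signalling proper, such as Bmp1, a protease, Bmp2k, a kinase, and Fzd10os, an RNA antisense to Fzd10. Fgf11, Fgf12, Fgf13 and Fgf14 encode intracellular Fgf homologous factors, which are not secreted ligands.

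The cells were tdTomato+ endocrine cells sorted from the pancreas of mice on a C57BL/6 background. Isl1CKO mice carried Isl1loxP/loxP;Neurod1-cre, so that Isl1, which encodes a LIM-homeodomain transcription factor, was floxed on both alleles. Control mice were littermates with Isl1loxP/+;Neurod1-cre, and so had 1 floxed allele and the same Cre. All mice carried the Cre-dependent tdTomato reporter Ai14, and both sexes were used. The Neurod1-cre transgene acts where Neurod1 is expressed, so it marks endocrine cells of several hormone types together. CUT&Tag, which cuts and tags chromatin at antibody-bound sites with a transposase, was run for H3K27ac and H3K27me3 at postnatal day 9 (P9), with 2 libraries per genotype and mark, each from a pool of 3 to 4 pancreases and about 20000 cells. ISL1 was profiled in Control cells only, with 1 library at P9 and 2 libraries at E14.5 that are given as a single column. In pooled cells a mark carried by fewer cells and a mark that is weaker in each cell cannot be told apart.

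Wnt ligands bind Frizzled receptors, and Sfrp, Frzb and Dkk proteins are secreted antagonists that bind the ligands or their co-receptors. Secreted Fgf ligands act through receptor tyrosine kinases. Most Bmp, Gdf and Nodal ligands of the TGF-beta superfamily act through receptor serine/threonine kinases and Smad proteins. These pathways direct budding and growth of the embryonic pancreas. In differentiated cells many such developmental genes are held silent by Polycomb complexes, which deposit H3K27me3 over broad domains that often start at CpG-rich promoters. H3K27ac marks active promoters and enhancers. A promoter that carries both marks in a mixed population may have them in the same cells or in different ones.

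Promoter sequence is shown for 6 genes that the results below turn on, to make the base composition visible. Wnt5b and Frzb carry the promoter regions with the smallest unadjusted p for H3K27ac among those higher and those lower in both Isl1CKO libraries, of the genes with a matched sequence. Fgf6 and Fzd1 take the same places for H3K27me3, and Wnt2b and Nodal had the highest ISL1 values at E14.5 and P9. The sequences are from RefSeq on GRCm38.p6, and their positions cannot be set against the GRCm39 positions of the regions given below. Each is the 250 bases before the gene's start, read 5′ to 3′ on the gene's own strand, and CG dinucleotides are in capitals.
Wnt5b: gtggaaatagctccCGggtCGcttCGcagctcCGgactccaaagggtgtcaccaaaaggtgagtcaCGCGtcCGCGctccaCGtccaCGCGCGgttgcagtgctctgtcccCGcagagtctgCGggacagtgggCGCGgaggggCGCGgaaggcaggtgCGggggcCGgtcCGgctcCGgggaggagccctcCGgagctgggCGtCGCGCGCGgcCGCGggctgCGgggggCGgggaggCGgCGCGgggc
Frzb: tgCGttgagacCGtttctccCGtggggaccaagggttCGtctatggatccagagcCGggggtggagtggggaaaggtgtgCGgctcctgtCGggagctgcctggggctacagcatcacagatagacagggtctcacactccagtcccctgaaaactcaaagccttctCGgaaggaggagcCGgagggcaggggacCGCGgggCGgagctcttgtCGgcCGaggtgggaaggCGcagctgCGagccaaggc
Fgf6: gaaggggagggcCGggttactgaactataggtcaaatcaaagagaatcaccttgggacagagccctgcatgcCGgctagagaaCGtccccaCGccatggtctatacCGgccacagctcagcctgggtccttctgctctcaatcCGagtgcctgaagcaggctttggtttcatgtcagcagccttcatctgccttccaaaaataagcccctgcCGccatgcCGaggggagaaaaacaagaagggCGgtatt
Fzd1: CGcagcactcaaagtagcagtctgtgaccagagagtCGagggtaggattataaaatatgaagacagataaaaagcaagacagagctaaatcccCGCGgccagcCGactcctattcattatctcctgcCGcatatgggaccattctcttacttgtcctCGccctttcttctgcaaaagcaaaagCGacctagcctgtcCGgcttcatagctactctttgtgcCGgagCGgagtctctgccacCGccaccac
Wnt2b: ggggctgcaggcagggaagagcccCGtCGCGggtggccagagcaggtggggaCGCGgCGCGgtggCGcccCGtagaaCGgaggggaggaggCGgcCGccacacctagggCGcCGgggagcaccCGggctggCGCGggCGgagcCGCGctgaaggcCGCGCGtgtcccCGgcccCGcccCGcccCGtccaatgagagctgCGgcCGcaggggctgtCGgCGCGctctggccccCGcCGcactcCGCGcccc
Nodal: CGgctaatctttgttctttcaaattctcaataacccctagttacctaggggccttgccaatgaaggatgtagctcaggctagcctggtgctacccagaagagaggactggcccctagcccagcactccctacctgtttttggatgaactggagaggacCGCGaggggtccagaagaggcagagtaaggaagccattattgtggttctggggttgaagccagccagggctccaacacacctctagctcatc
The Wnt5b stretch lies at chr6:119544348-119544597 (minus strand, the first of 3 starts listed), Frzb at chr2:80447397-80447646 (minus), Fgf6 at chr6:127015292-127015541 (plus), Fzd1 at chr5:4758217-4758466 (minus), Wnt2b at chr3:104961710-104961959 (minus) and Nodal at chr10:61417722-61417971 (plus). CG dinucleotides numbered 36 in the Wnt2b stretch, 35 in Wnt5b, 16 in Frzb, 12 in Fzd1, 9 in Fgf6 and 3 in Nodal.

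The density of CG was higher in the family than over all genes by the median, but not at every promoter. RefSeq promoters of 300 bases (250 before and 50 after the start) were matched for 59 of the 87 genes. Their median ratio of observed to expected CG was 0.729, against 0.389 over 27025 genes. A ratio of at least 0.6 was reached by 39 of the 59 (66.1%), against 36.5% of all. The 7331 genes of the whole set with H3K27ac and no H3K27me3 at the promoter had a median of 0.765. The 40 matched genes with an H3K27me3 region at the promoter had a median of 0.744, against 0.563 for the 2742 genes of the whole set in that state. A ratio of at least 0.6 was reached by 28 of these 40 (70.0%), against 45.8% of the 2742. CTAATGG and CTAATTG, searched on both strands as homeodomain motifs of the ISL1 kind, were found in 0 of the 59 windows, against 4.01% of all. Motifs of the TCF/LEF kind, CTTTGAA and CTTTGAT on both strands, were found in 5 of 59 (8.47%), against 8.77% of all. All 5 were among the 40 with H3K27me3 (12.5%, against 6.89% of the 2742). Of the sequences shown, only Fgf6 held one, CTTTGAT. The letters describe these windows and say nothing about binding.

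The libraries held 681047 and 1441926 H3K27ac counts in regions for Isl1CKO, and 1307049 and 1815511 for Control. H3K27me3 libraries held 2276887 and 2260039 for Isl1CKO, and 1202276 and 1750706 for Control. Both Isl1CKO libraries of H3K27me3 were thus deeper than both Control libraries. Control replicate 2 was the outlying H3K27ac library, with correlations of 0.451 to 0.497 with the other 3 across regions, where the highest pair reached 0.722. For H3K27me3 the correlations of Control replicate 2 were 0.649 to 0.754, where the highest pair reached 0.799. H3K27ac was present at 15 of 18 endocrine marker genes, with medians of 72.5 CPM in Isl1CKO and 53.0 CPM in Control cells. Gene by gene there was no such rise: 7 of the 15 had a log2 fold change above 0 and 8 below, with a median of -0.10. Of the defining hormone genes, Ins2, Gcg and Sst had no H3K27ac region listed, while Ins1 reached 7.20 CPM in Isl1CKO and 15.3 CPM in Control cells. Of other cell types, H3K27ac regions were listed for 2 of 8 acinar, 5 of 8 ductal, 3 of 7 endothelial, 3 of 11 mesenchymal, 2 of 7 immune and 2 of 6 glial markers. Which part of Isl1 is deleted is not given in the labels, so the marks give no check of the deletion.

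The first question was which state these genes were in. Region lists are shared by both genotypes, so a state here is a property of the locus over both. Within 3 kb of the start, 36 of the 87 genes had an H3K27me3 region only, 20 had both marks, 9 had H3K27ac only and 22 had neither. H3K27me3 was thus listed at 64.4% of the promoters, against 15.7% of all 31575 genes, and both marks at 23.0%, against 4.54%. H3K27ac was listed at 33.3%, against 39.8% of all genes. At some promoters with both marks, most H3K27ac counts came from Control replicate 2, the outlying library. Fgf3 held 0 and 12 counts in Isl1CKO cells and 0 and 38 counts in Control cells. Wnt10a held 5 and 1 counts in Isl1CKO cells and 0 and 53 counts in Control cells. Bmp3, Fgfr1 and Wnt6, given below, were alike. Among genes that also had an ISL1 window, the share with H3K27me3 was 64.6%, against 13.9%.

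**Figure D1:**
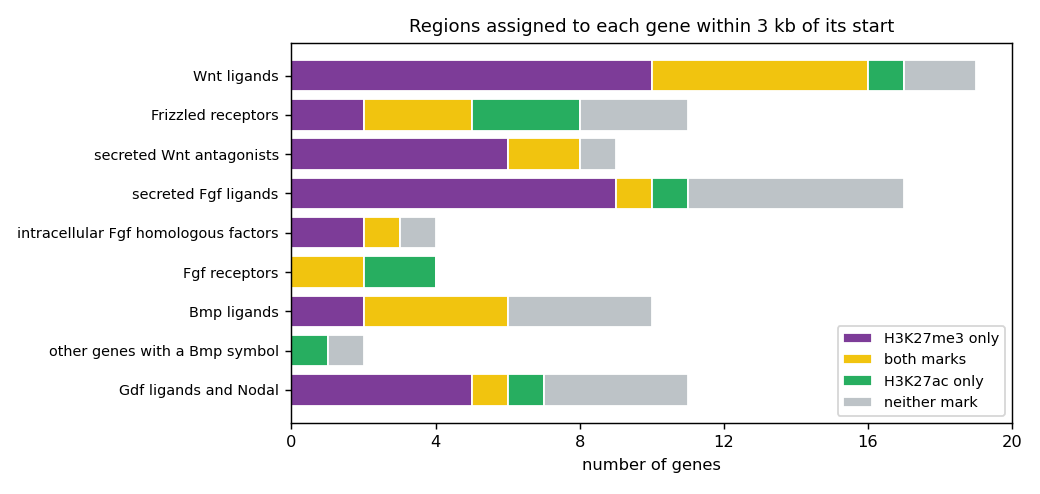
Number of genes of each role with an assigned H3K27me3 region only, both marks, H3K27ac only or neither within 3 kb of the start. H3K27me3 is listed at 16 of 19 Wnt ligand genes, and at 5 of 11 Frizzled symbols; the H3K27ac of 1 of the 4 Fgf receptors, Fgfr2, lies at another locus.

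By role, the counts were as follows, with no test between roles. Of the 19 Wnt ligand genes, 10 had H3K27me3 only and 6 had both marks; Wnt4, a ligand of kidney and gonad development, had H3K27ac only. Of the 9 antagonists, 6 had H3K27me3 only and 2, Frzb and Sfrp5, had both. Of the 17 secreted Fgf ligands, 9 had H3K27me3 only, 1 had both, 1 had H3K27ac only (Fgf9) and 6 had neither. Bmp ligands had both marks at 4 of 10 promoters (Bmp2, Bmp3, Bmp7 and Bmp8a) and H3K27me3 alone at 2. Gdf ligands and Nodal had H3K27me3 alone at 5 of 11. Of the 11 Frizzled symbols, 3 had H3K27ac only (Fzd3, Fzd6 and Fzd8), 3 had both marks, 2 had H3K27me3 only and 3 had neither. Of the 4 Fgf receptors, 2 had both marks and 2 had H3K27ac only, one of them Fgfr2, whose region lies at another locus.

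Assignment to a gene hid some domains. An H3K27me3 region of 7901 bp that touches the Bmp4 promoter window was assigned to Gm15222, and measured 481 ± 105 CPM in Isl1CKO and 560 ± 5.88 CPM in Control cells (SD, n = 2 each, as in all pairs of means below). A region of 10962 bp at the Wnt7b window was assigned to AU022754 (649 and 559 CPM in Isl1CKO cells, 841 and 626 CPM in Control cells). Another of 9866 bp at the Fzd10os window was assigned to Gm57274 (445 ± 56.5 CPM in Isl1CKO, 518 ± 11.5 CPM in Control cells). Both marks at the Fzd5 window were assigned to Gm38058. Counted by any region that touches the promoter window, H3K27me3 lay at 57 of 82 windows (69.5%), against 15.8% of all 22332, and H3K27ac at 31 (37.8%), against 45.2%.

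The reverse error touched the Fgf receptors. The H3K27ac region assigned to Fgfr2 (chr7:132723208-132727246, GRCm39) lies at the far start of a gene model of 2960899 bp in the files, whereas Fgfr2 spans 104358 bp in RefSeq. In RefSeq the protein-coding genes at that place, between Zranb1 and Tex36, are Ctbp2, a transcriptional corepressor gene, and Gm35364. The values of that region are therefore not values of the usual Fgfr2 promoter. Fgf20 and Fgf4 also had models over 3 times as long as in RefSeq. The H3K27ac region touching the Fgf20 window was assigned to Micu3, and the one at the Gdf9 window to Uqcrq.

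The H3K27me3 domains of the family were broad and strong. Of 171 regions, 38 (22.2%) were at least 5000 bp wide, against 7.87% of all regions, and the median width was 1805 bp, against 1294 bp. The wide ones belonged to 33 genes, 13 of them Wnt ligands and 9 secreted Fgf ligands. None was assigned to a Frizzled or an Fgf receptor gene, although the region of 9866 bp assigned to Gm57274 touches the Fzd10os window. The highest level was at Wnt1, which patterns the midbrain-hindbrain boundary. Its domain (chr15:98686236-98707597, 21362 bp, from the promoter) measured 1192 and 1227 CPM in Isl1CKO cells and 1543 and 1412 CPM in Control cells. It also covers the starts of Ddn and B130046B21Rik. Wnt11, a ligand of the non-canonical branch, had a domain of 18619 bp (chr7:98475497-98494115) with 1073 and 1002 CPM in Isl1CKO cells and 1166 and 837 CPM in Control cells. At Wnt1 both Isl1CKO libraries were below both Control libraries, while at Wnt11 the groups overlapped.

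Regions of several neighbouring genes lay close together, though not all of these were strong domains. Wnt6 and Wnt10a had domains 5050 bp apart on chromosome 1, and Wnt9b and Wnt3 had domains 14149 bp apart on chromosome 11. On chromosome 7 the Fgf3 domain ended 338 bp before a small region assigned to Fgf4. The strong domain assigned to Fgf4 starts further on, at 144412477. Smaller regions beside the promoter domains of Wnt3a and Wnt9a came within 1781 bp of each other on chromosome 11. Such regions of Wnt10b and Wnt1 came within 4304 bp on chromosome 15. Neighbouring genes are not independent measurements.

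The second question was whether H3K27me3 at these genes differed between Isl1CKO and Control cells. No region passed the edgeR quasi-likelihood test at an adjusted p below 0.05, among the genes or among all 19434 regions tested (0% of regions). Of 169 regions of the family that were tested (2 did not pass the count filter), 12 had an unadjusted p below 0.05, against a background of 4.34%. The smallest adjusted p was 0.835. With DESeq2, an alternative test, 5 of them passed, against 0.846% of the 14536 regions to which it gave an adjusted p. The 5 were the promoter regions of Bmp2, Fzd1, Fgf8 and Wnt2b and a region in the 3′ UTR of Wnt10a. All 5 were lower in Isl1CKO cells. Of the 123 regions of the whole set that passed DESeq2, only 3 were higher.

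The promoter region of Bmp2, which encodes a ligand of bone and many other tissues, held 313 and 354 counts in Isl1CKO cells and 281 and 537 counts in Control cells (chr2:133393729-133397972). Scaled to library size, it had 134 and 150.5 CPM in Isl1CKO cells and 248 and 315 CPM in Control cells. The groups did not overlap, and the log2 fold change of Isl1CKO over Control was -0.99 (SE 0.24, edgeR adjusted p = 0.927, DESeq2 adjusted p = 0.00794). Leaving out single libraries gave -1.16 to -0.81. Fzd1, a Frizzled receptor gene, had 31.2 and 28.5 CPM in Isl1CKO cells and 93.4 and 81.1 CPM in Control cells (chr5:4804539-4807344). Both Isl1CKO values lay below both Control values, with a log2 fold change of -1.54 (SE 0.45, edgeR adjusted p = 1, DESeq2 adjusted p = 0.0131).

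At Wnt2b, a canonical ligand gene (chr3:104865826-104874378, 8553 bp), H3K27me3 measured 296 and 276 CPM in Isl1CKO cells and 437 and 431 CPM in Control cells. Replicates lay close together and the groups apart (log2 fold change -0.60, SE 0.18, edgeR adjusted p = 1, DESeq2 adjusted p = 0.0266). The domain of Fgf8, an embryonic patterning ligand (chr19:45721017-45735057, 14041 bp), measured 766 and 708 CPM in Isl1CKO cells and 927 and 1018 CPM in Control cells. The groups did not overlap (log2 fold change -0.40, SE 0.13, edgeR adjusted p = 1, DESeq2 adjusted p = 0.0423). In the 3′ UTR of Wnt10a, a ligand gene of skin appendages and teeth (chr1:74841898-74848308), the mark measured 185 and 239 CPM in Isl1CKO cells and 406 and 395 CPM in Control cells. This region had the smallest p of the family (log2 fold change -0.92, SE 0.21, edgeR adjusted p = 0.835, DESeq2 adjusted p = 0.00264). The promoter domain of Wnt10a measured 818 and 794 CPM in Isl1CKO cells and 1147 and 890.5 CPM in Control cells and had a log2 fold change of -0.34.

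A region in the 3′ UTR of Wnt8b, a ligand gene of the forebrain, measured 116 and 158 CPM in Isl1CKO cells and 197 and 285 CPM in Control cells (log2 fold change -0.82, SE 0.28, edgeR adjusted p = 1), and the groups did not overlap. The Wnt8b promoter lay the other way, with 38.9 and 48.0 CPM in Isl1CKO cells and 16.7 and 22.9 CPM in Control cells (log2 fold change 1.12, SE 0.60, edgeR adjusted p = 1), and its groups were apart as well. Among the strongest domains, Gdf7, which encodes a Bmp-type ligand of the roof plate, had 864 and 774 CPM in Isl1CKO cells and 985 and 913 CPM in Control cells, and Wnt3a, a ligand gene of the paraxial mesoderm, had 730.3 and 705 CPM in Isl1CKO cells and 802 and 903 CPM in Control cells. The groups were apart at both, with log2 fold changes of -0.21 and -0.25. At Wnt9a, another ligand gene, H3K27me3 measured 629.8 and 505 CPM in Isl1CKO cells and 800.2 and 347 CPM in Control cells, and the 2 Control libraries lay on either side of the Isl1CKO ones. Bmp6, Sfrp1, Wnt3, Fzd2, Fgf14 and Frzb also had overlapping groups, and at Frzb the mark measured 129 and 97.3 CPM in Isl1CKO cells and 113 and 104 CPM in Control cells.

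Of the regions with more H3K27me3 in Isl1CKO cells, most of those with the smallest p were weak. An exon region of Fgf12, which encodes an intracellular Fgf homologous factor that binds sodium channels, held 31 and 55 counts in Isl1CKO cells and 2 and 0 counts in Control cells (chr16:28647599-28648961). The ratio of scaled counts was 25.9, with an exact 95% interval of 6.96 to 217 that covers counting error only. A distal region of the same gene held 43 and 53 counts in Isl1CKO cells and 4 and 0 counts in Control cells. A small promoter region of Fgf6, a ligand gene of muscle, held 36 and 47 counts in Isl1CKO cells and 3 and 8 counts in Control cells. A distal region of Bmp10, a cardiac ligand gene, had 22.6 and 8.50 CPM in Isl1CKO cells and 1.76 and 3.52 CPM in Control cells. An intronic region of Gdf6, a ligand gene of joint formation, had 18.4 and 44.2 CPM in Isl1CKO cells and 13.2 and 4.70 CPM in Control cells. Groups were apart at all of these. An exon region of Gdf10, a divergent Bmp-type ligand gene, was stronger, with 194 and 175.1 CPM in Isl1CKO cells and 122 and 125 CPM in Control cells (log2 fold change 0.57, SE 0.27, edgeR adjusted p = 1). None of these 6 regions passed edgeR or DESeq2. The strongest region with the groups apart in this direction was the promoter of Dkk2, a secreted Wnt antagonist gene, with 289.7 and 268 CPM in Isl1CKO cells and 245 and 226 CPM in Control cells (log2 fold change 0.24, SE 0.21, edgeR adjusted p = 1). Dkk2 was picked out after its values were seen.

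**Figure D2:**
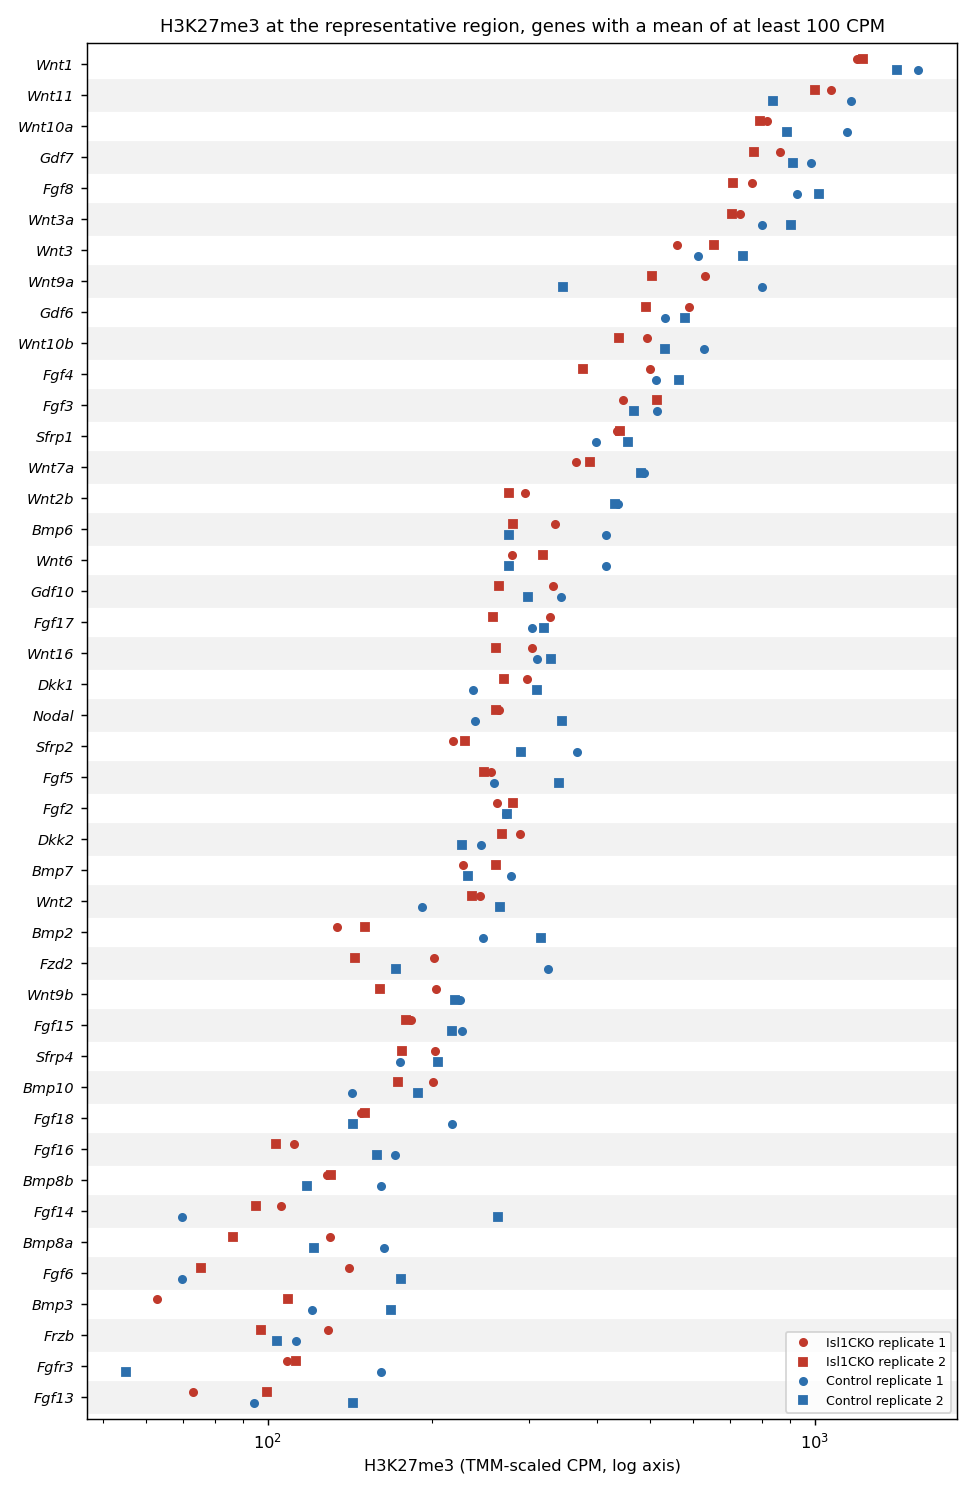
H3K27me3 in TMM-scaled CPM (log axis) at the representative region of the 44 genes with a mean of at least 100 CPM, with 1 point per library; Isl1CKO points are drawn above Control points in each row. Both Isl1CKO libraries are below both Control libraries in 17 genes, above them in 1 (Dkk2), and the groups overlap in 26; of all 1805 genes at that level, 38.4% are below and 6.2% above.

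For a count by gene, each gene was taken at its strongest promoter region, or at its strongest region where it had none at the promoter. Of 64 genes, 50 had a log2 fold change below 0 and 14 above 0, where 56.2% of all 7879 genes were below 0. The median was -0.23, against -0.09 over all genes. An unadjusted p below 0.05 was reached by 9 genes (background 6.24%). Both Isl1CKO libraries were below both Control libraries in 24 genes (background 22.7%) and above them in 5 (background 14.1%). Strong regions lay below more often in general. Among genes with a mean of at least 100 CPM, 17 of 44 in the family were below, against 38.4% of all 1805 at that level. At that level 1 was above, against 6.2%. By region, the same counts were 36 of 169 below (background 16.7%) and 35 above (background 18.7%), and 98 regions had a log2 fold change below 0 (background 47.5%).

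By role, values were below 0 in 13 of 17 Wnt ligand genes (median -0.22), 11 of 12 secreted Fgf ligand genes (-0.26) and 7 of 8 Bmp genes (-0.23). The same held for 6 of 6 Gdf and Nodal genes (-0.18), 5 of 6 Frizzled genes (-0.63) and 3 of 4 intracellular Fgf factor genes (-0.60). Of the 9 antagonist genes 5 were below 0, with a median of 0.00, and both Fgf receptor genes were above 0 (median 0.15).

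Broad domains in general lay on the same side. Of regions at least 5000 bp wide, 31 of 38 in the family (81.6%) and 72.6% of all 1581 had a log2 fold change below 0, with medians of -0.20 and -0.16. Both Isl1CKO libraries were below both Control libraries in 16 of the 38 (42.1%), against 38.6% of the 1581. Narrower regions had medians of -0.01 in the family and 0.10 over all. With a loess correction by abundance, the broad regions had medians of -0.01 in the family and 0.02 over all, and 37 of the 64 genes were below 0. Under that correction Bmp2 stood at -0.85, Fzd1 at -1.49, the Wnt10a 3′ UTR region at -0.76, Wnt2b at -0.43, Fgf8 at -0.18 and Wnt1 at -0.04. Mesenchymal marker genes were lower too, with 7 of 7 below 0 (median -0.44), against 56.2% of all genes. They were strong domains, with a median of 366 CPM in Control cells. Their summed H3K27me3 was 3381 and 3351 CPM in Isl1CKO cells and 4347 and 4245 CPM in Control cells. Its part in the values of the family was not tested. In the other marker lists 1 of 4 endocrine, 1 of 3 acinar, 2 of 3 ductal, 2 of 3 endothelial, 0 of 1 immune and 0 of 2 glial genes were below 0.

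**Figure D3:**
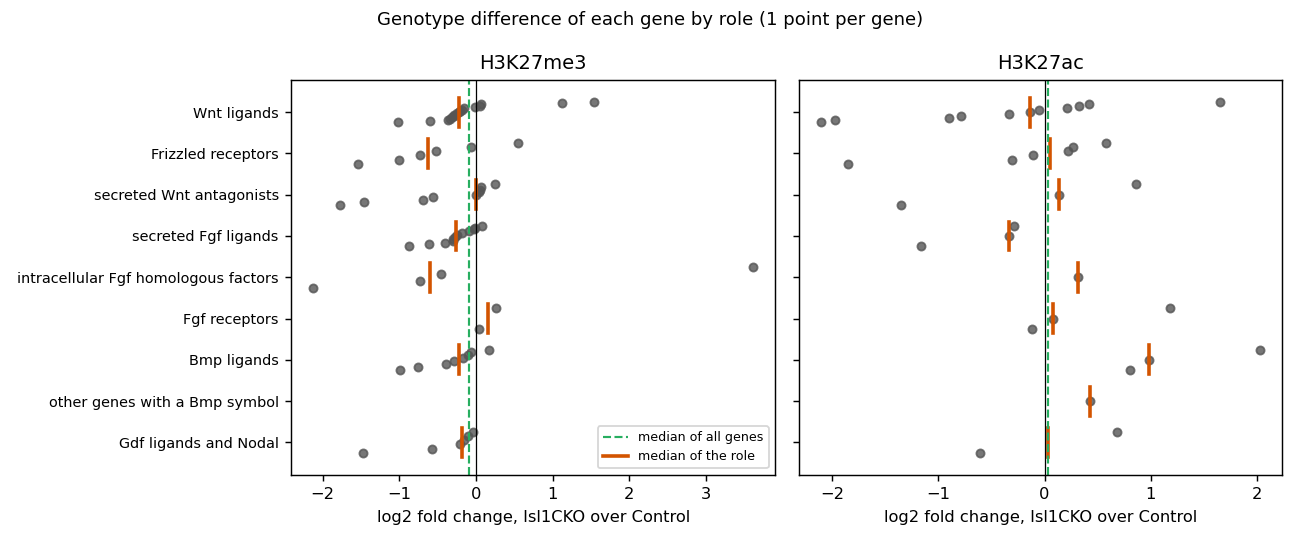
Log2 fold change of Isl1CKO over Control for each gene at its representative region (1 point per gene), by role, for H3K27me3 and H3K27ac. Bars are role medians and the dashed line is the median of all genes (-0.09 for H3K27me3 and 0.03 for H3K27ac); most H3K27me3 points lie left of 0, while H3K27ac points lie on both sides.

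In the authors' deposited table, 62 of the 171 H3K27me3 regions were lower in Isl1CKO cells at an adjusted p below 0.05 and 14 were higher, where 29.6% and 9.17% of all regions were. By gene, the authors' deposited table had 36 lower (37.2% of all) and 1 higher (6.36% of all). It gave log2 fold changes of -1.51 for the Bmp2 promoter region and -2.10 for Fzd1. The library sizes that reproduce its fold changes put the median of all H3K27me3 regions at -0.51, where TMM scaling put it at 0.05, and 61 of the 64 genes below 0.

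The third question was whether H3K27ac differed. No region passed edgeR at an adjusted p below 0.05, in the family or among all 30036 tested (0%). Of the 67 tested regions of the family, 3 had an unadjusted p below 0.05 (background 5.83%), and the smallest adjusted p was 0.846. DESeq2 passed 0 of them, and 0.114% of the 25377 regions to which it gave an adjusted p. Without Control replicate 1, which leaves the outlying library as the only Control, 8 regions of the family and 2189 of all passed edgeR. Without Control replicate 2, 0 of the family and 15 of all did.

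The promoter of Fzd8, a Frizzled receptor gene, had the highest H3K27ac of the family by the mean over all 4 libraries, with 119 and 156 CPM in Isl1CKO cells and 99.6 and 129 CPM in Control cells, and the groups overlapped. Bmp1, whose product is a procollagen-processing protease, had 103 and 94.9 CPM in Isl1CKO cells and 69.5 and 77.3 CPM in Control cells (log2 fold change 0.43, SE 0.36, edgeR adjusted p = 0.917). The groups were apart there. The promoter of Gdf15, a stress-induced cytokine gene, had 27.4 and 80.8 CPM in Isl1CKO cells and 67.2 and 103 CPM in Control cells, with overlap. Distal regions next to Wnt11 and Wnt7b were among the strongest, with 88.2 and 71.0 CPM in Isl1CKO cells and 76.4 and 87.7 CPM in Control cells for Wnt11, and 80.6 and 66.1 CPM in Isl1CKO cells and 64.8 and 52.1 CPM in Control cells for Wnt7b. The log2 fold change at Wnt7b was 0.32, and 0.53 or 0.17 with the first or the second Control library left out.

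**Figure D4:**
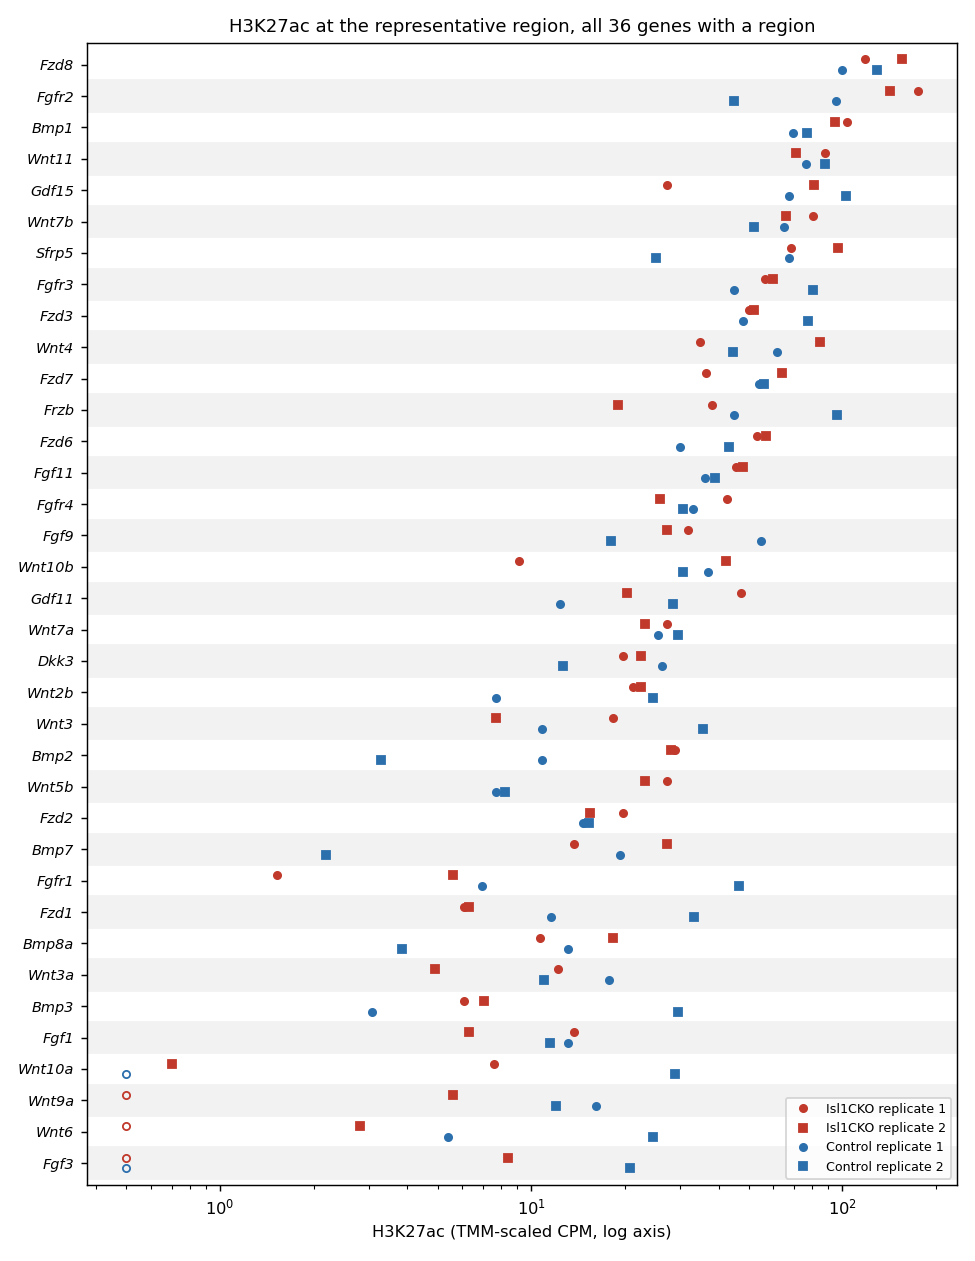
H3K27ac in TMM-scaled CPM (log axis) at the representative region of the 36 genes with a region, with 1 point per library; Isl1CKO points are drawn above Control points, and 0 CPM is an open point at the left edge. Both Isl1CKO libraries are above both Control libraries in 9 genes, below them in 5, and the groups overlap in 22. Of all 15923 tested genes, 19.6% are above and 17.8% below. The 5 below include Fgfr1 and Wnt6, which did not pass the count filter and were not tested.

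Bmp2 measured higher for H3K27ac in Isl1CKO cells and lower for H3K27me3. Its H3K27ac region (chr2:133394269-133395224) held 19 and 40 counts in Isl1CKO cells and 14 and 6 counts in Control cells, or 28.9 and 28.1 CPM in Isl1CKO cells and 10.8 and 3.29 CPM in Control cells. The groups did not overlap (log2 fold change 2.03, SE 0.86, edgeR adjusted p = 0.850). Leaving out single libraries gave 1.39 to 3.12, with 1.39 without Control replicate 2 and 3.12 without Control replicate 1. Wnt5b, a ligand gene of the non-canonical branch, had 27.4 and 23.2 CPM in Isl1CKO cells and 7.72 and 8.22 CPM in Control cells (chr6:119520461-119521317). Its groups were apart as well (log2 fold change 1.65, SE 0.83, edgeR adjusted p = 0.865).

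Frzb, which encodes a secreted Wnt antagonist, measured lower. Its promoter region (chr2:80276473-80278248) had 38.0 and 19.0 CPM in Isl1CKO cells and 44.8 and 95.9 CPM in Control cells. The groups did not overlap (log2 fold change -1.35, SE 0.55, edgeR adjusted p = 0.850), but without Control replicate 2 the log2 fold change was -0.70. Fzd1 measured lower for H3K27ac as for H3K27me3. One promoter region had 7.61 and 2.81 CPM in Isl1CKO cells and 25.5 and 15.3 CPM in Control cells (log2 fold change -2.03, SE 1.05, edgeR adjusted p = 0.865). The other had 6.09 and 6.32 CPM in Isl1CKO cells and 11.6 and 33.4 CPM in Control cells (log2 fold change -1.85, SE 0.95, edgeR adjusted p = 0.865), and -0.89 without Control replicate 2.

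Sfrp5, another secreted antagonist gene, had 7 H3K27ac regions that lay on both sides. Its promoter had 68.5 and 97.0 CPM in Isl1CKO cells and 67.2 and 25.2 CPM in Control cells (log2 fold change 0.86, SE 0.49, edgeR adjusted p = 0.878), with 1.77 or 0.32 if the first or the second Control library was left out. One distal region had 65.4 and 55.5 CPM in Isl1CKO cells and 38.6 and 4.93 CPM in Control cells, and its log2 fold change was 3.63 without Control replicate 1 and 0.64 when Control replicate 2 was left out. Another distal region had 4.56 and 1.41 CPM in Isl1CKO cells and 7.72 and 20.3 CPM in Control cells, the opposite order, with a log2 fold change of -2.32, and -1.47 without Control replicate 2. The region assigned to Fgfr2, at the Ctbp2 locus as described above, averaged 158 ± 23.3 CPM in Isl1CKO cells and 70.3 ± 35.9 CPM in Control cells (log2 fold change 1.18, SE 0.39, edgeR adjusted p = 0.846), with 1.85 if the first Control library was left out and 0.72 if the second was. A 3′ UTR region of Fgfr4, an Fgf receptor gene, had 82.2 and 40.8 CPM in Isl1CKO cells and 40.1 and 15.3 CPM in Control cells, a log2 fold change of 1.14, and 2.01 or 0.57 if the first or the second Control library was left out. At the Fgfr2 and Fgfr4 regions, the Bmp2 and Sfrp5 promoters and the first Sfrp5 distal region, the difference thus depended on the outlying library. It was larger with that library as the only Control, and smaller without it. The smaller distal region of Wnt11 had 3.04 and 10.5 CPM in Isl1CKO cells and 18.5 and 25.8 CPM in Control cells, and an intronic region of Bmp1 had 1.52 and 4.22 CPM in Isl1CKO cells and 17.0 and 12.6 CPM in Control cells. Groups did not overlap at these regions. The promoter regions of Bmp3, Fgfr1 and Wnt6 did not pass the count filter in enough libraries to be tested. Bmp3 held 4 and 10 counts in Isl1CKO cells and 4 and 54 counts in Control cells. Fgfr1 held 1 and 8 counts in Isl1CKO cells and 9 and 85 counts in Control cells. Wnt6 held 0 and 4 counts in Isl1CKO cells and 7 and 45 counts in Control cells. Their highest value was in Control replicate 2 each time.

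By gene, 33 were tested for H3K27ac, of which 17 had a log2 fold change above 0 and 16 below 0 (48.3% below 0 over 15923 genes). The median was 0.08, against 0.03 over all, and 3 genes had an unadjusted p below 0.05 (background 5.96%). Both Isl1CKO libraries were above both Control libraries in 9 genes (background 19.6%) and below them in 3 (background 17.8%). By region, 35 of 67 were below 0 (background 51.4%), 15 had the groups apart with Isl1CKO above (background 18.1%) and 11 with Isl1CKO below (background 19.4%). The authors' deposited table had 20 of 70 regions higher (27.8% of all) and 9 lower (9.25% of all). By gene, the authors' deposited table had 12 higher (31.6% of all) and 5 lower (7.2% of all).

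At promoters with both marks the balance differed from gene to gene. Fgfr3, an Fgf receptor gene, had 58.0 ± 2.43 CPM of H3K27ac in Isl1CKO cells and 62.7 ± 25.3 CPM in Control cells, beside 111 ± 2.90 CPM of H3K27me3 in Isl1CKO cells and 108 ± 75.0 CPM in Control cells. Fzd7, a Frizzled receptor gene, had 36.5 and 63.9 CPM in Isl1CKO cells and 54.0 and 55.9 CPM in Control cells of H3K27ac, and 42.7 and 15.7 CPM in Isl1CKO cells and 70.5 and 27.6 CPM in Control cells of H3K27me3. Wnt10b, a ligand gene, had 9.13 and 42.2 CPM in Isl1CKO cells and 37.1 and 30.7 CPM in Control cells of H3K27ac, and 493 and 438 CPM in Isl1CKO cells and 628 and 532 CPM in Control cells of H3K27me3. Fgf11, an intracellular Fgf homologous factor gene, had 45.6 and 47.8 CPM in Isl1CKO cells and 36.3 and 38.9 CPM in Control cells of H3K27ac. Its H3K27me3 region held 1 and 31 counts in Isl1CKO cells and 46 and 33 counts in Control cells (log2 fold change -2.12, and -1.18 without Isl1CKO replicate 1).

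Other genes of the pathways gave the following counts, and none passed edgeR. For H3K27me3, 12 of 17 further Wnt pathway genes were below 0 (median -0.11), as were 6 of 10 Fgf pathway genes (median -0.10); over all genes the share is 56.2% and the median -0.09. So were 21 of 30 Bmp and Nodal pathway genes (median -0.24). For H3K27ac, with 48.3% of all genes below 0 and a median of 0.03, 18 of 29 Wnt pathway genes were above 0 (median 0.18), as were 12 of 18 Fgf pathway genes (median 0.17), while 18 of 31 Bmp and Nodal pathway genes were below 0 (median -0.25).

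The last question was where ISL1 lay in Control cells. The file gives a whole number per promoter window and stage, with no stated unit and no replicates, so depth is unknown and no test was made. At P9, 22 of 82 windows (26.8%) had a value of at least 1, against 8.86% of all windows. At E14.5, 53 of 82 (64.6%) did, against 37.7%. Both stages had a value at 12 windows (14.6%, against 4.67%). Of all windows that touch H3K27me3, 18.1% had a value at P9 and 57.8% at E14.5. Among these, 19 of 57 windows of the family (33.3%) had a value at P9, against 17.9% of 3470 other windows, and 41 of 57 (71.9%) had one at E14.5, against 57.6%.

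**Figure D5:**
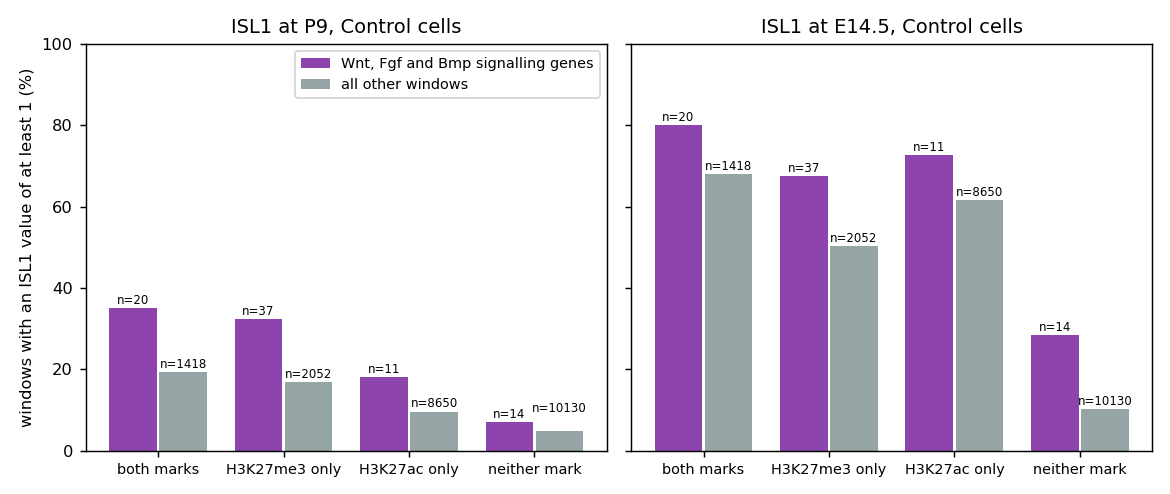
Share of promoter windows with an ISL1 value of at least 1 in Control cells at P9 and E14.5, by the marks that touch the window, for the Wnt, Fgf and Bmp signalling genes and all other windows; n is the number of windows. The family is above the other windows in each class, for example at 80.0% against 68.1% for both marks at E14.5. At P9 this rests on few windows in some classes: 1 of 14 family windows with neither mark and 2 of 11 with H3K27ac only.

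Nodal, a left-right patterning ligand of the TGF-beta superfamily, had the highest P9 value of the family, 7, reached by 2 of the 22332 windows (chr10:61250752-61256751). Its E14.5 value was 1. An H3K27me3 domain there measured 265 and 261 CPM in Isl1CKO cells and 239.7 and 345 CPM in Control cells, with overlapping groups. Sfrp5 had 4 at P9, reached by 18 windows, and 0 at E14.5. Gdf7 had 2 at P9 and 5 at E14.5. The other 19 windows of the family with a P9 value had 1.

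At E14.5 Wnt2b was highest with 6, reached by 1.05% of all windows, followed by Gdf7 and Wnt11 with 5, reached by 2.06%. Bmp4, Fgf8, Fzd8, Wnt3, Wnt4 and Wnt6 had 4. The highest values of all windows were 8 at P9 and 133 at E14.5. Genes with a value at both stages were Bmp3, Bmp7, Fgf8, Fgf15, Fzd5, Gdf7, Nodal, Sfrp1, Sfrp2, Wnt3a, Wnt4 and Wnt10a. By role, a value at E14.5 was present at 14 of 19 Wnt ligand windows, 8 of 9 Frizzled windows, 5 of 8 antagonist windows, 9 of 17 secreted Fgf windows and 6 of 10 Bmp windows. At P9 these counts were 5, 2, 3, 5 and 3, and the Fgf receptor windows had 0 of 4, where the window of Fgfr2 lies at the Ctbp2 locus. The windows of Bmp2, Fzd1 and Frzb had 0 at P9 and 1 at E14.5.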

How the data were processed

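The submitters' processing notes name the build GRCm39 and, with no role given, Bowtie2 (2.3.5.1), edgeR (4.0.16), ChIPseeker (1.38.0), MACS2 (2.2.6) and Picard (2.27.4). The authors deposited raw counts per region and library for both histone marks, with their log2 fold change, log2 mean abundance, a likelihood ratio score, p-value and adjusted p-value per region. The deposited ISL1 score is a whole number per promoter window and stage with no stated unit. In the histone tables chromosomes were numbered by alphabetical order of their names: 7.48% of H3K27ac and 9.25% of H3K27me3 labels matched the ISL1 file as written, and 100% after relabelling by that order.

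Groups came from the sample labels, with 2 libraries per genotype and mark. Counts were filtered with filterByExpr, scaled by TMM and compared with edgeR 4.0.16 (quasi-likelihood test, R 4.3.3), adjusted by Benjamini-Hochberg over all regions of a mark. DESeq2 1.42.0 and other settings were alternatives. On simulated counts with a spread near that of these data, the test missed most of the planted changes. The common biological coefficient of variation was 0.490 for H3K27ac and 0.622 for H3K27me3, and a region that did not pass is not shown to be unchanged. CPM are TMM-scaled, and 3 counts correspond to 1.64 to 4.56 CPM for H3K27ac and 1.28 to 2.64 CPM for H3K27me3. P-values measure the spread between 2 pools. Named regions were the strongest, the strongest of each role, the 6 of smallest unadjusted p per direction with groups apart, Frzb and the 8 strongest promoters with both marks; for ISL1, the highest values per stage and the genes with values at both. By this rule Fgfr2 would have had its promoter sequence shown; it was passed over, after its values were seen, because its gene model in the files differs from RefSeq. Bmp2 had a smaller p than Wnt5b for H3K27ac and than Fzd1 for H3K27me3, and was passed over because no promoter sequence was matched to it. The genes, lists and rules were chosen with earlier results of these data known.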

Additional observations from a re-analysis of the deposited data

How the results depend on the processing

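No region of the family passed edgeR under RLE size factors, library totals, library sizes recovered from the authors' fold changes, the loess correction, without the filter or with the replicate block. The replicate block was an additional fit only, because libraries share a number without a stated pairing (correlations of same-numbered deviations were 0.0504 for H3K27ac and -0.0142 for H3K27me3); with it, medians over genes were 0.05 for H3K27ac and -0.23 for H3K27me3, and 0 regions passed. Over all regions, DESeq2 passed 29 for H3K27ac and 123 for H3K27me3 (5 of the family), and the implied sizes passed 3 for H3K27ac. Leaving out single libraries gave 0 to 2189 H3K27ac regions (0 to 8 of the family) and 0 to 10 H3K27me3 regions (0 of the family), with medians over genes from -0.089 to 0.13 for H3K27ac and from -0.30 to -0.16 for H3K27me3. The H3K27ac median was 0.67 with the implied sizes and -0.054 without the filter, and the H3K27me3 median was -0.80 with the implied sizes. ISL1 values of at least 5 were present in 1 window at P9 and 3 at E14.5, and values of at least 20 in 0 at either stage. Counting any region that touches the promoter window, chosen after seeing the data, changed neither promoter share by over 1.5 times.

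Some named values changed sign. With the implied sizes, H3K27ac became 0.28 at Fgf9, 0.60 at Fgfr3, 0.41 at Fzd7 and 0.69 at the distal Wnt11 region, and H3K27me3 became -0.63 at Fgfr3, -0.50 at Frzb, -0.50 at Sfrp1 and -0.54 at Wnt11. The loess correction turned H3K27me3 to 0.0053 at Bmp6, 0.014 at Gdf7, 0.057 at Wnt3 and 0.19 at Wnt9a. Wnt9a was also 0.11 with library totals and 0.10 with the replicate block. Leaving out single libraries, H3K27ac ranged from -0.90 to 0.75 at Fgf9, -0.42 to 0.38 at Fgfr3, -0.57 to 0.24 at Fzd7, -1.87 to 0.34 at Wnt10b, -0.18 to 0.12 at the distal Wnt11 region and -0.12 to 1.49 at Wnt2b. H3K27me3 ranged from -0.45 to 0.15 at Bmp6, -1.40 to 0.52 at Fgf14, -0.56 to 0.99 at Fgfr3, -0.16 to 0.24 at Frzb, -0.92 to 0.0024 at Fzd2, -1.63 to 0.073 at Fzd7, -0.068 to 0.12 at Sfrp1, -0.18 to 0.30 at Wnt11 and -0.51 to 0.70 at Wnt9a. The causes were not tested.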
